A study of Homo sapiens with 3 samples.

Results

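The sialyltransferases, fucosyltransferases, polypeptide GalNAc-transferases and beta-3-GlcNAc-transferases were examined in enzalutamide-resistant and abiraterone-resistant prostate cancer cells. Members were probe sets annotated to a single gene whose symbol begins with ST3GAL, ST6GAL, ST6GALNAC, ST8SIA, GALNT, FUT plus a number, or B3GNT, with antisense RNAs and pseudogenes left out. The rule used names only and no measured value, but it was chosen with earlier results of these data known. It gave 135 of 54675 probe sets and 55 of 19775 genes, divided into 7 enzyme classes. Of these genes, 37 were read by several probe sets and 18 by 1.

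The cells were C4-2B, an established castration-resistant line derived from LNCaP. C4-2B MDVR cells were kept in medium with 20 µM enzalutamide, an androgen receptor antagonist, and C4-2B AbiR cells in medium with 10 µM abiraterone acetate, an inhibitor of androgen synthesis. C4-2B parental cells received neither drug and were passaged alongside the sublines. Each of the 3 lines was measured on 1 Affymetrix HG-U133 Plus 2.0 array, so that there were no replicates, no test and no p-value. Every difference is between 1 culture and another, and the subline, its drug and its array cannot be told apart. Whether a subline was a single clone is not given in the sources used here.

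Values are log2 RMA signals that the authors had centred for each probe set, so that they show differences between arrays but no expression level. A gene close to background could therefore not be told from one that is well expressed. In bulk RNA, fewer cells with a transcript and less transcript per cell cannot be told apart. A difference is the mean over the probe sets of a gene, and ± gives the SD between them, which is a technical spread. For scale, 45 probe sets of spiked control transcripts were read on the same arrays. Relative to the parental array they had an SD of 0.13 and a largest absolute difference of 0.35 on the MDVR array, and 0.10 and 0.20 on the AbiR array. Between the sublines these were 0.12 and 0.34. The pooled SD between the probe sets of a gene, over all genes with several, was larger. It was 0.34 in MDVR and 0.27 in AbiR against parental cells, and 0.32 between the sublines. Lying beyond the spiked controls is thus a weak criterion. The labelled cell type could not be checked by level. Of 7 luminal prostate markers read, KLK2 and KLK3 were at least 2-fold lower in both sublines. KLK2 differed by −1.29 ± 1.19 in MDVR cells and −2.12 ± 1.93 in AbiR cells, and KLK3 by −4.07 ± 3.23 in MDVR cells and −3.17 ± 2.36 in AbiR cells. Of 6 stromal and 4 leukocyte markers read, 0 differed by 2-fold in any comparison, beside 4.48% of all genes.

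These enzymes build and cap the sugar chains of secreted and cell surface proteins and lipids in the Golgi. GalNAc-transferases start mucin-type O-glycans by linking GalNAc to serine or threonine. Beta-3-GlcNAc-transferases extend chains, while fucosyltransferases and sialyltransferases mostly finish them. Truncated chains such as sialyl-Tn, a GalNAc capped directly by sialic acid, are known from carcinomas including those of the prostate, and several glycosylation genes are known to respond to androgen in prostate cancer cells.

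Of the 55 genes, 50 differed by less than 2-fold in every comparison. The other 5 passed 2-fold in at least 1, beside 4.48% of all genes. ST6GALNAC1 and GALNT7 were lower in both sublines than in parental cells, and GALNT14, GALNT3 and GALNT2 were higher in MDVR. Against parental cells, 3 members (5.45%) were at least 2-fold higher in MDVR, beside 1.65% of all genes, and 2 (3.64%) at least 2-fold lower, beside 1.67% of all genes. At 1.5-fold the same counts were 3 (4.81% of all genes) and 2 (5.15% of all genes). In AbiR, 0 were at least 2-fold higher, beside 1.07% of all genes, and 2 (3.64%) at least 2-fold lower, beside 0.804% of all genes. Between the sublines, 0 members differed by 2-fold in either direction, against 0.875% of all genes higher in MDVR and 1.13% lower. With members this few, each of these shares rests on 3 genes or fewer.

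**Figure D1:**
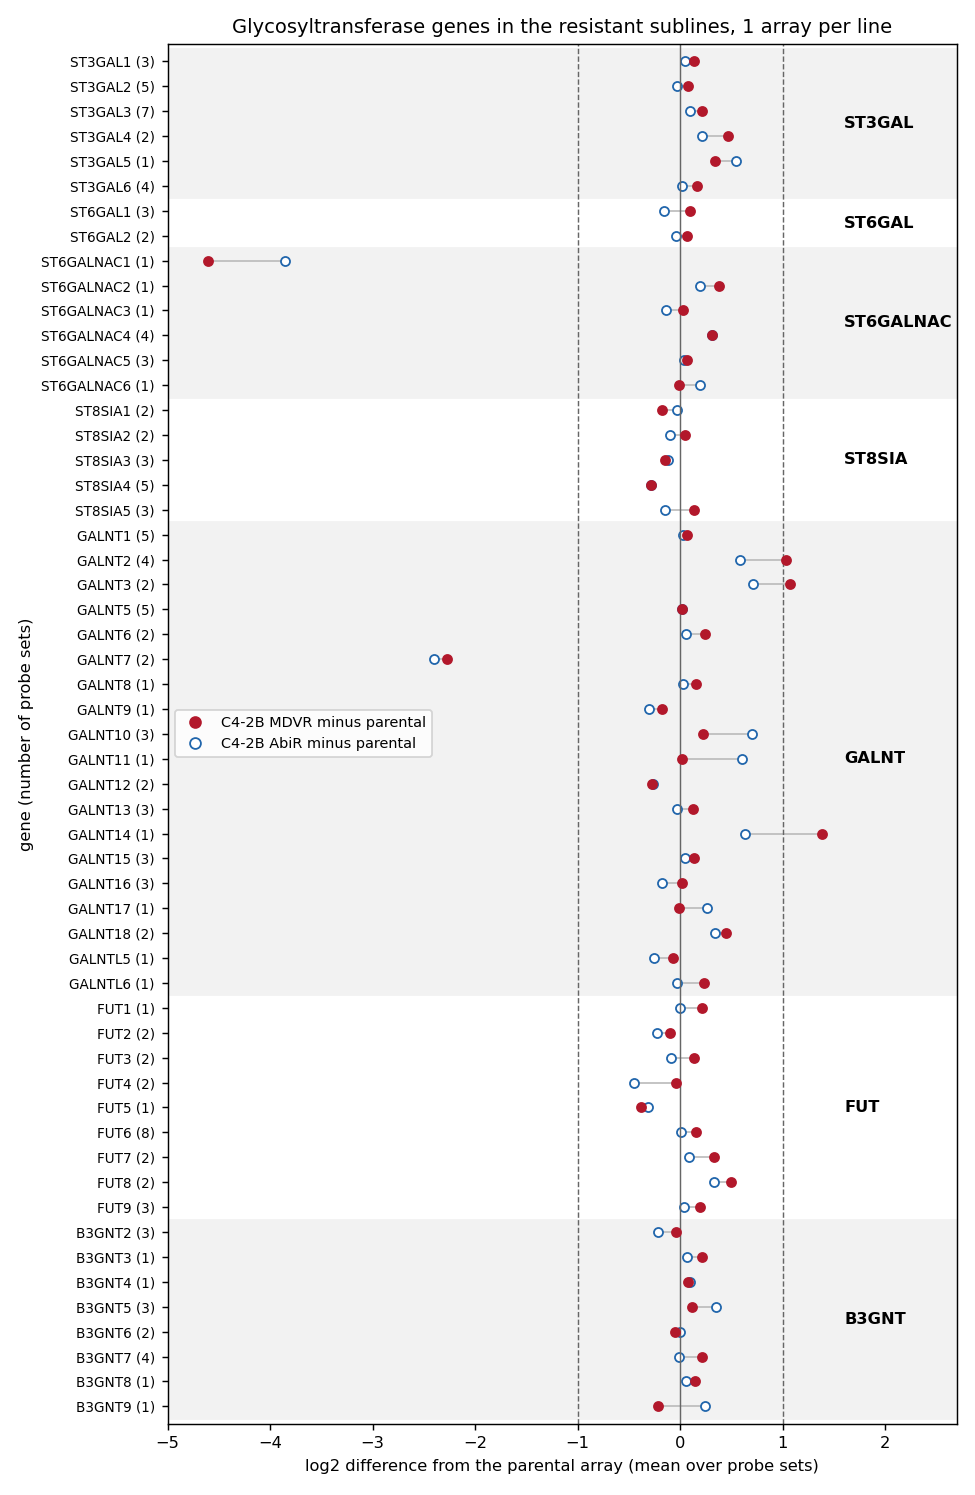
Each row is 1 of the 55 genes, grouped by enzyme class, with its log2 difference from the parental array on the x axis with filled circles for the MDVR subline, open circles for the AbiR subline and dashed lines at 2-fold. ST6GALNAC1 lies at −4.60 and −3.85 and GALNT7 at −2.27 and −2.40, and GALNT14, GALNT3 and GALNT2 are the only genes past the upper line, in MDVR alone.

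The member median was 0.12 in MDVR, beside 0.044 over all genes, and 0.020 in AbiR, beside −0.011 over all genes. Centring the arrays on the spiked hybridization controls turned the AbiR median to −0.071, beside −0.102 over all genes. This centring moves every gene alike, so the member median stayed above that of all genes. The same centring turned the AbiR medians of the ST3GAL, GALNT and B3GNT classes and the MDVR median of the ST6GALNAC class below 0, so no direction is read from these class medians.

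ST6GALNAC1 showed the widest difference of the 55 genes. It encodes the sialyltransferase known as the sialyl-Tn synthase, which caps the first GalNAc of an O-glycan and thereby blocks its extension. The centred log2 value of its single probe set was −0.37 on the MDVR array, 0.37 on the AbiR array and 4.23 on the parental array. The parental array stood far above both sublines. The difference was −4.60 in MDVR, a 24.3-fold lower signal, and only 0.0101% of all genes had a lower one. It was −3.85 in AbiR, a 14.5-fold lower signal, with 0.0303% of all genes below it. There is no second probe set to set beside this one.

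The other genes of the ST6GALNAC class did not share this difference. ST6GALNAC2, a paralog close by on chromosome 17 with 1 gene model between them in RefSeq, was at 0.37 in MDVR and 0.19 in AbiR by 1 probe set. ST6GALNAC4, which forms disialylated O-glycans, was at 0.31 ± 0.11 and 0.32 ± 0.16, and all 4 of its probe sets were above 0 in both sublines. ST6GALNAC3, ST6GALNAC5 and ST6GALNAC6 lay between −0.01 and 0.07 in MDVR and between −0.14 and 0.19 in AbiR. The probe sets of ST6GALNAC5 spread from −0.51 to 0.62 in MDVR, around a mean of 0.07.

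GALNT7 was the other gene lower in both sublines. The enzyme is a follow-up GalNAc-transferase, which prefers peptides that already carry GalNAc. Its 2 probe sets had values of 0.026 and −0.12 on the MDVR array, of −0.14 and −0.21 on the AbiR array and of 2.02 and 2.43 on the parental array. Both probe sets thus placed the parental array apart from the sublines. The difference was −2.27 ± 0.39 in MDVR, 4.83-fold lower, and −2.40 ± 0.34 in AbiR, 5.27-fold lower. MDVR minus AbiR was 0.13 ± 0.05, within the range of the spiked controls. GALNT7-DT, annotated as the divergent noncoding transcript of GALNT7, had smaller values of −0.15 ± 0.046 and −0.24 ± 0.12 over 3 probe sets.

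Further GalNAc-transferase genes, GALNT14, GALNT2 and GALNT3, were past 2-fold in MDVR, with smaller values in AbiR. GALNT14, whose enzyme has been linked to death receptor glycosylation, was read by 1 probe set at 0.67 on the MDVR array, −0.08 on the AbiR array and −0.71 on the parental array. Its difference was 1.39 in MDVR (2.62-fold) and 0.63 in AbiR (1.55-fold).

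GALNT2 encodes a widely expressed initiating transferase whose known substrates include apolipoprotein C-III. Its 4 probe sets ranged from −0.045 to 1.03 on the MDVR array, from −0.013 to 0.27 on the AbiR array and from −0.69 to −0.31 on the parental array. All 4 were lowest in parental cells. The mean was 1.04 ± 0.52 in MDVR (2.05-fold), from 0.43 to 1.58, and 0.59 ± 0.18 in AbiR (1.5-fold), from 0.33 to 0.75. The value in MDVR is close to the 2-fold line and was 0.97 with arrays centred on hybridization controls. Only 1 probe set of GALNT2 lacks the suffix _s, which marks probes that can match several transcripts, and it gave 0.43 in MDVR.

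GALNT3, whose enzyme glycosylates the phosphate hormone FGF23, had probe sets that differed from each other. The first was at 1.16 on the MDVR array, 0.12 on the AbiR array and −0.95 on the parental array, and the second at 0.016 on the MDVR array, 0.33 on the AbiR array and −0.016 on the parental array. Only the first placed MDVR above the other lines. The mean of 1.07 ± 1.47 in MDVR thus joins 2.11 and 0.033, and that of 0.71 ± 0.51 in AbiR joins 1.07 and 0.35. This SD between probe sets was the largest of the 37 members with several probe sets.

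**Figure D2:**
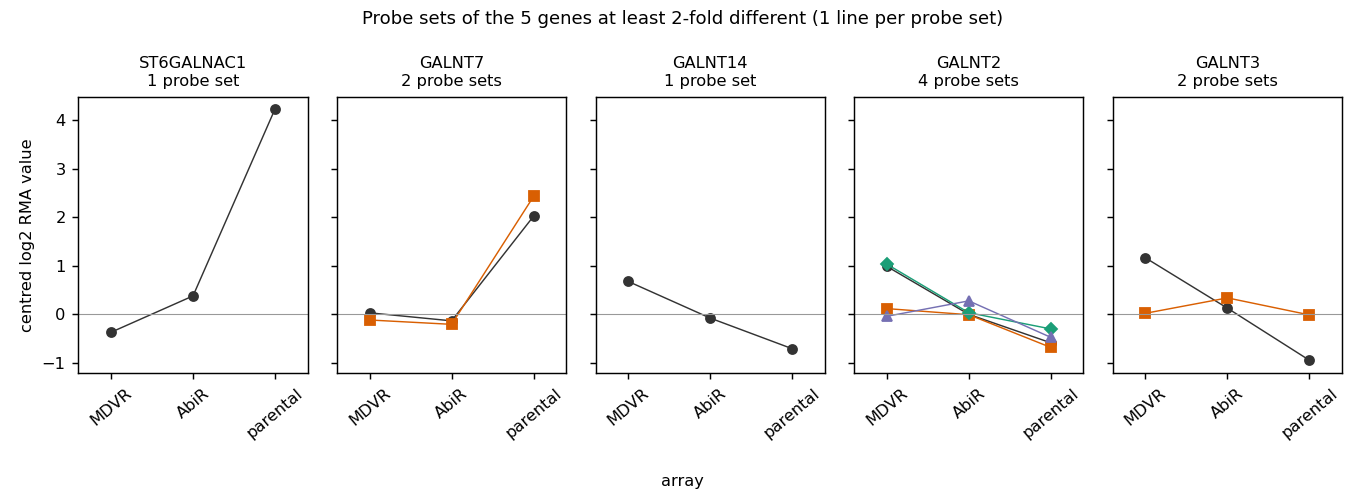
Centred log2 RMA values (y axis) of every probe set of the 5 genes at least 2-fold different are shown on the MDVR, AbiR and parental arrays (x axis), with 1 line per probe set. The parental value stands above both sublines for ST6GALNAC1 (4.23) and GALNT7 (2.02 and 2.43) and below both for GALNT14 and GALNT2, and the probe sets of GALNT3 part on the MDVR array at 1.16 and 0.016.

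The remaining 15 of 19 GALNT genes lay between −0.28 and 0.45 in MDVR and between −0.31 and 0.70 in AbiR. GALNT1, a broadly expressed initiating enzyme, was at 0.07 ± 0.30 in MDVR, with probe sets from −0.32 to 0.44, and at 0.03 ± 0.06 in AbiR. In AbiR, 5 members were at least 1.5-fold higher, which is 9.09% of members beside 3.32% of all genes, and 2 were 1.5-fold lower, beside 2.52% of all genes. All 5 higher ones were GALNT genes, and besides GALNT2, GALNT3 and GALNT14 they were GALNT10 (0.70 ± 0.18, 3 probe sets) and GALNT11 (0.60, 1 probe set), picked out after their values were seen. With arrays centred on the hybridization controls, 2 of the 5 stayed past 1.5-fold, and GALNT2 (0.50), GALNT11 (0.51) and GALNT14 (0.54) did not. In MDVR, GALNT10 was at 0.22 ± 0.41 and GALNT11 at 0.02. The probe sets for GALNT4 are annotated jointly with a read-through transcript and are outside the rule. They averaged 0.79 ± 0.057 in MDVR cells and 0.52 ± 0.21 in AbiR cells, which cannot be given to either transcript alone.

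The upstream sequences of the GALNT genes past 2-fold are shown so that the gene lower in both sublines, GALNT7, can be set beside those higher in MDVR. Each is the 250 bases before the gene start on the strand of the gene, from RefSeq, build GRCh38.p14. Capitals mark the GC box GGGCGG on either strand, with CCGCCC as its reverse, and overlapping matches were counted. GALNT7 is at chr4:173168561-173168810 on the plus strand, GALNT2 at chr1:230066988-230067237 on the plus strand, GALNT3 at chr2:165794248-165794497 on the minus strand and GALNT14 at chr2:31138441-31138690 on the minus strand.
GALNT7: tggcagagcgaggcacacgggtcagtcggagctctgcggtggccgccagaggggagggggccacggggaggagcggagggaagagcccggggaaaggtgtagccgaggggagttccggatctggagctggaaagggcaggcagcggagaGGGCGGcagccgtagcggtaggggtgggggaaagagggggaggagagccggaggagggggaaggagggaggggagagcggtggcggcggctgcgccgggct
GALNT2: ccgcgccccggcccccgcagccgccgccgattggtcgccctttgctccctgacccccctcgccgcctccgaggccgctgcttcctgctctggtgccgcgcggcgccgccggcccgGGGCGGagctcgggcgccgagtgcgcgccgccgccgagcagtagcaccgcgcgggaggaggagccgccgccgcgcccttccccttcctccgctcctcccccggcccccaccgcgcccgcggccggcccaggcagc
GALNT3: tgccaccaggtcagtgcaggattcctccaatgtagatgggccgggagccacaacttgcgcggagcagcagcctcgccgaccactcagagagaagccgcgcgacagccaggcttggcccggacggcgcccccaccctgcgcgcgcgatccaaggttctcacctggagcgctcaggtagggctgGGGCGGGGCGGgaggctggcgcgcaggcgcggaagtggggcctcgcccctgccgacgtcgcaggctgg
GALNT14: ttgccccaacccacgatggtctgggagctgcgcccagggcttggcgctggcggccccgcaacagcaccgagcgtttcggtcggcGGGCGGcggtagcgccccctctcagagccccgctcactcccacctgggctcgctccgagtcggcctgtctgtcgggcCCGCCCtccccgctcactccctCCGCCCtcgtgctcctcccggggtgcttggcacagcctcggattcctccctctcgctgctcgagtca

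All 4 upstream sequences are rich in G and C, at 72.4% for GALNT7, 82.8% for GALNT2, 71.6% for GALNT3 and 72.4% for GALNT14. The median is 58.0% over 35116 promoters and 67.2% over the 41 members with a sequence, which reach 85.2%. A high share is thus not particular to these 4 genes. GALNT7 and GALNT2 each hold 1 GC box, GALNT3 holds 2 that overlap, and GALNT14 holds 3. The GC box letters occur in 42.6% of all promoters and in 27 of the 41 members found in the table (65.9%). No limit by kind of gene or to 1 promoter per gene was set on the 35116, whereas each member had 1. The sets may thus differ in more than membership. The androgen receptor half-site letters AGAACA, or TGTTCT on the other strand, occur in 0 of these 4 windows, in 4 of the 41 members (9.76%) and in 12.4% of all promoters. A match of letters is not a binding site, and their absence from this window says nothing of the receptor. The table did not pair a sequence with 14 members, ST6GALNAC1 among them.

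The ST3GAL class attaches sialic acid to galactose. All 6 of its genes were above 0 in MDVR, as were 57.4% of all genes, with a class median of 0.19 beside 0.044 over all genes. Only ST3GAL4 lay beyond the largest spiked control difference of 0.35 in MDVR. Of the 6, 0 passed 2-fold in any comparison, beside 4.48% of all genes. ST3GAL4, which sialylates chains that can become sialyl-Lewis structures, was highest in MDVR at 0.46 ± 0.37, and its probe sets were at 0.73 and 0.20. In AbiR it was at 0.21 ± 0.26. ST3GAL5, the GM3 synthase that opens ganglioside synthesis, was highest in AbiR at 0.54 by 1 probe set and at 0.34 in MDVR. ST3GAL1, which sialylates the first galactose of O-glycans and so competes with their branching, was at 0.13 ± 0.09 in MDVR and 0.05 ± 0.06 in AbiR, both within the range of the spiked controls. ST3GAL2, an enzyme of O-glycans and gangliosides, was lowest, at 0.08 ± 0.31 and −0.03 ± 0.22 over 5 probe sets that lay on both sides of 0.

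The ST6GAL class, which caps the galactose of N-glycans, has 2 genes. ST6GAL1 was at 0.09 ± 0.34 in MDVR and −0.16 ± 0.19 in AbiR. Its 3 probe sets did not move together, with −0.27, 0.15 and 0.40 in MDVR cells against 0.04, −0.19 and −0.34 for the same probe sets in AbiR cells. ST6GAL2 was at 0.07 ± 0.15 and −0.04 ± 0.11.

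The ST8SIA class links sialic acids to each other. Its median was −0.15 in MDVR and −0.12 in AbiR, and all 5 genes were below 0 in AbiR, as were 52.4% of all genes. In AbiR only ST8SIA4 lay beyond the largest spiked control difference of 0.20. In MDVR no gene of the class lay beyond that of 0.35. ST8SIA4, a polysialyltransferase of the neural cell adhesion molecule, was lowest in both sublines, at −0.28 ± 0.34 in MDVR and −0.28 ± 0.24 in AbiR. Of its 5 probe sets, 4 were below 0 in both, with the lowest at −0.78 in MDVR and at −0.53 in AbiR. ST8SIA5, which makes complex gangliosides, was highest in MDVR at 0.13 ± 0.03 and was at −0.14 ± 0.07 in AbiR. ST8SIA1, the GD3 synthase, was at −0.18 ± 0.22 and −0.03 ± 0.20.

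In the FUT class, 0 of 9 genes passed 2-fold in any comparison, beside 4.48% of all genes, so that with 9 genes this says little of the class. FUT8, the only known enzyme of core fucosylation of N-glycans, was highest in both sublines. Its probe sets were at 0.19 and −0.02 on the MDVR array, at −0.19 and 0.02 on the AbiR array and at −0.44 and −0.39 on the parental array. The parental array was lowest by both. The difference was 0.50 ± 0.19 in MDVR and 0.33 ± 0.12 in AbiR. FUT4, which makes Lewis x structures, was at −0.04 ± 0.41 in MDVR, where its 2 probe sets had opposite signs, and at −0.45 ± 0.10 in AbiR, the lowest of the class. FUT5, of the Lewis enzyme group, was at −0.39 and −0.32 by 1 probe set. The other 6 genes lay between −0.10 and 0.33 in MDVR and between −0.22 and 0.09 in AbiR. FUT3, FUT5 and FUT6 are near-identical paralogs, and probe sets may read more than one of them.

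The 8 B3GNT genes, whose enzymes extend chains with GlcNAc, stayed within 0.35 of 0 on the log2 scale in both sublines. B3GNT2, the main polylactosamine enzyme, was at −0.05 ± 0.10 in MDVR and −0.22 ± 0.06 in AbiR. B3GNT5, which opens lacto-series glycolipids, was highest in AbiR at 0.35 ± 0.20 and was at 0.12 ± 0.34 in MDVR. B3GNT7, an enzyme of keratan sulfate chains, was highest in MDVR at 0.22 ± 0.24, with 1 of its 4 probe sets at 0.56, and was at −0.01 ± 0.08 in AbiR. B3GNT9 was at −0.21 in MDVR and 0.24 in AbiR by 1 probe set.

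The sublines were also set directly against each other, which does not involve the parental array. The median of MDVR minus AbiR was 0.13 over the members and 0.054 over all genes. ST6GALNAC1 was lowest at −0.75, 1.68-fold lower in MDVR than in AbiR, and GALNT14 highest at 0.76, 1.69-fold higher in MDVR. At 1.5-fold, GALNT14 was the 1 member higher (1.82% of members, against 2.77% of all genes) and ST6GALNAC1 the 1 member lower (1.82%, against 3.96%). Below 0, GALNT11 followed at −0.58, GALNT10 at −0.48 ± 0.49 and B3GNT9 at −0.46. Above 0, GALNT2 was at 0.45 ± 0.66, FUT4 at 0.41 ± 0.31 and GALNT3 at 0.36 ± 0.96. The spread between probe sets exceeded the mean for GALNT2, GALNT3 and GALNT10. Of the 55 genes, 47 (85.5%) lay within the largest absolute spiked control difference of 0.34, beside 80.6% of all genes. Against parental cells, 45 (81.8%) lay within that of 0.35 in MDVR, beside 77.0% of all genes, and 32 (58.2%) within that of 0.20 in AbiR, beside 67.0% of all genes.

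**Figure D3:**
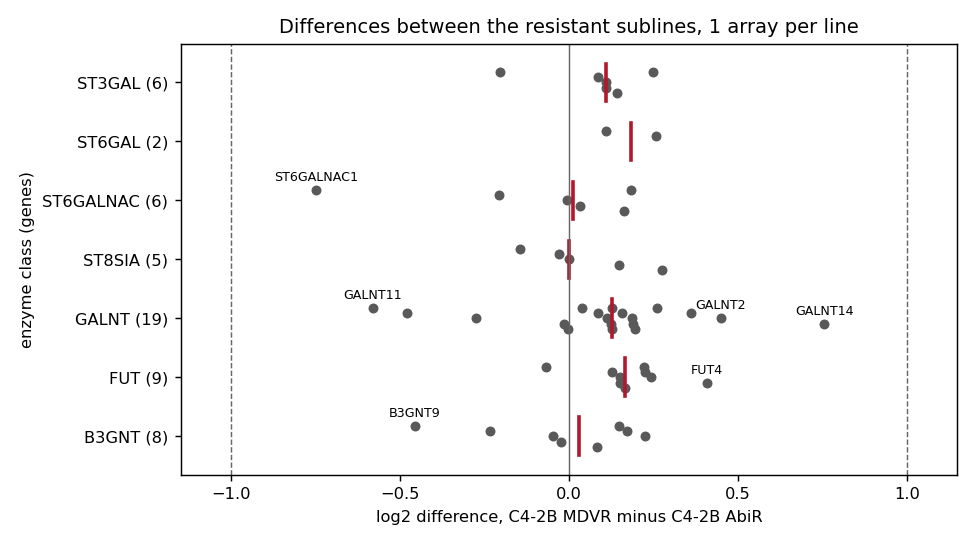
Points are the 55 genes by log2 difference, MDVR minus AbiR (x axis), within its enzyme class (y axis, with the number of genes), with red bars at class medians and dashed lines at 2-fold. All 55 genes lie inside the dashed lines, between ST6GALNAC1 at −0.75 and GALNT14 at 0.76.

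The other genes of the pathway were read as 4 lists of enzymes and transporters. Of their 40 measured genes, 3 passed 2-fold in any comparison, beside 4.48% of all genes. The 3 were GCNT1, UAP1 and GNPNAT1. Of 16 enzymes that build the core and branches of O-glycans and their galactose chains, 1 was at least 2-fold lower in each subline (1.67% of all genes in MDVR and 0.804% in AbiR) and 0 higher, and the median was 0.016 in MDVR and −0.046 in AbiR. That gene was GCNT1, which adds the GlcNAc branch to the O-glycan core. Its mean centred value was 0.51 on the MDVR array, −0.51 on the AbiR array and 1.83 on the parental array. The difference was −1.33 ± 0.42 for the MDVR subline and −2.34 ± 0.07 for the AbiR subline, with both probe sets below 0 in each. MDVR minus AbiR was 1.01 ± 0.35, just past 2-fold between the sublines, with probe sets at 0.77 and 1.26. The lower probe set is thus under the 2-fold line and the mean is close to it.

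The supply of sugar donors was read next. Of 10 genes for sialic acid synthesis, transport and removal, 0 passed 2-fold in any comparison, beside 4.48% of all genes. Their medians were −0.023 in MDVR and −0.033 in AbiR. Of 7 genes for fucose donors and fucose removal, 0 passed 2-fold in any comparison, beside the same 4.48%, with medians of 0.22 and 0.080. The GDP-fucose transporter SLC35C1 was highest in MDVR, at 0.59 ± 0.10, and FCSK, the kinase of fucose salvage, in AbiR, at 0.67. GMDS, the first enzyme from GDP-mannose to GDP-fucose, was lowest in both, at −0.40 ± 0.26 in MDVR cells and −0.50 ± 0.24 in AbiR cells, with all 3 probe sets below 0. Of 7 genes for UDP-sugar supply, 1 was at least 2-fold lower in each subline, beside 1.67% of all genes in MDVR and 0.804% in AbiR. The medians were −0.17 and −0.071. In MDVR this was GNPNAT1, at −1.01 and at −0.58 in AbiR. In AbiR it was UAP1, at −1.43 and at −0.61 in MDVR, so that both had negative values in both sublines, each by 1 probe set. Both act on the route to UDP-GlcNAc. UAP1, which makes UDP-GlcNAc and UDP-GalNAc, was at 0.29 on the MDVR array, −0.54 on the AbiR array and 0.90 on the parental array.

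ST6GALNAC1, GALNT7, GCNT1 and UAP1 are among the glycosylation genes known as androgen-regulated in prostate cancer cells. A role of androgen in their values was not tested. The list of such glycosylation genes, with 7 measured, was drawn up with earlier results of these data known, those of its own genes included, and is no independent evidence. In MDVR 3 of the 7 were at least 2-fold lower, beside the 1.67% of all genes given above, and the median was −0.61. In AbiR 4 of the 7 were at least 2-fold lower, beside 0.804% of all genes, and the median was −1.43. Because of how the list was drawn up, neither count can be read as an excess over all genes. The other members of the list were ST6GAL1, described above, EDEM3, of glycoprotein quality control, at −0.39 ± 0.29 in MDVR and 0.12 ± 0.31 in AbiR, and CSGALNACT1, of chondroitin sulfate synthesis, at −0.18 ± 0.52 and 0.09 ± 0.31. Thus 3 of the 7 stayed within 2-fold in both sublines.

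**Figure D4:**
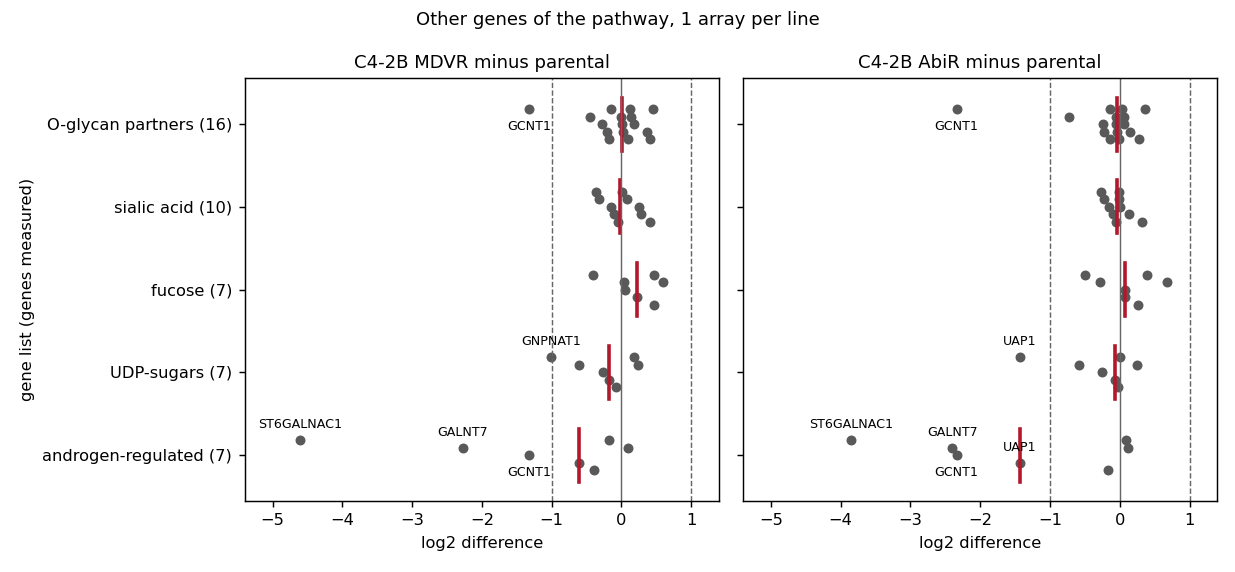
Points are genes of 5 lists (y axis, with the number measured), placed by their log2 difference from the parental array (x axis) in C4-2B MDVR on the left and C4-2B AbiR on the right, with red bars at list medians and dashed lines at 2-fold. GCNT1 lies at −1.33 and −2.34, and the androgen-regulated list, which holds ST6GALNAC1 and GALNT7, has medians of −0.61 and −1.43. That list was drawn up with the results of its own genes known.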

How the data were processed

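Gene expression was measured on 3 arrays, 1 each for C4-2B MDVR, C4-2B AbiR and C4-2B parental cells, grouped by the sample labels. The authors deposited log2 values for 54675 probe sets. The submitters' notes name RMA, a method that corrects background, normalizes arrays and summarizes probes, and its version is not given in the sources used here. Each probe set had also been centred by the authors: the values fit a zero median over 4 arrays in 100% of probe sets (tolerance 2e-06), beside 50.3% once columns were shuffled. The array beyond these 3 was not analysed here. Without levels, no filter on dim probe sets, background correction or quantile normalization could be tried.

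Of the probe sets, 41097 had 1 gene symbol in the platform annotation, and 99.9% of these had a gene ID in RefSeq GRCh38.p14, which was used for names, gene order and promoters only. Log2 differences were averaged over the probe sets of a gene with Python 3.11.15, numpy 2.4.6 and pandas 2.3.3. A gene was counted at 2-fold, with 1.5-fold as an alternative. Described in full were members at least 2-fold different in any comparison, and named besides were the highest and lowest gene of each class and comparison, 5 long-known members and those on the androgen-regulated list. Members, lists and rules were chosen with earlier results of these data known. The number of arrays limits the precision.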

Additional observations from a re-analysis of the deposited data

How the results depend on the processing

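The counts of members at least 2-fold different were recomputed under 8 alternatives and the medians under 5. The member median lay between 0.050 and 0.21 in MDVR, between −0.071 and 0.052 in AbiR, where its sign was not settled, and between 0.094 and 0.19 in MDVR minus AbiR. When probe sets with the suffixes _s, _x and _a were left out, 46 members kept a value. GALNT7 and GALNT3, read only by such probe sets, were not among them. The counts were then 1 higher and 1 lower in MDVR, in place of 3 and 2, and 1 lower in AbiR, in place of 2. With the probe set of largest SD for each gene, 1 member was higher in AbiR and 1 in MDVR minus AbiR, in place of 0, and in both cases this was GALNT3, at 1.07 and 1.04. At 1.5-fold, 5 members were higher in AbiR, 1 was higher and 1 lower in MDVR minus AbiR, each in place of 0. At 1.5-fold with arrays centred on hybridization controls, a setting chosen after seeing the data, these counts were 2, 1 and 1. Centring arrays on hybridization controls moved the median of all genes by −0.066 in MDVR and −0.091 in AbiR and took GALNT2 in MDVR to 0.97. Of 360 values of named members under the alternatives, 318 kept their side of 2-fold and, where under it, stayed within the spiked SD. Another 38 moved further, 2 passed 2-fold and 2, both of GALNT2 in MDVR, no longer did. Much of this count was fixed in advance. Re-centring moves every gene alike, by −0.091 to 0.025, which is less than the spiked SDs of 0.10 to 0.13. For genes with 1 probe set, the median and the probe set of largest SD return the same value. The count is thus no measure of robustness. No paired analysis was possible because each group has 1 array. Leaving out a replicate was not possible for the same reason.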

Other observations

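Relatives outside the naming rule were read as well. POFUT4, long known as FUT11, was at −0.37 ± 0.62 in MDVR and −0.45 ± 0.14 in AbiR over 2 probe sets. POFUT3, long known as FUT10, was at −0.06 ± 0.05 and −0.06 ± 0.17 over 3 probe sets, and QTGAL, long known as B3GNTL1, at 0.26 ± 0.13 and 0.21 ± 0.01 over 2. The antisense RNAs FUT8-AS1, GALNTL6-AS1, ST3GAL3-AS1 and ST8SIA6-AS1 had means between −0.027 and 0.24 in MDVR and between −0.22 and 0.074 in AbiR.

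The protein-coding neighbours of the members past 2-fold, 2 on each side in RefSeq order, were read where a probe set named them alone. Distances were not measured, so a neighbour in this order can lie far from the member. Around GALNT7 on chromosome 4, AADAT, an aminotransferase gene, was at −1.95 in MDVR and −3.34 in AbiR by 1 probe set, SAP30 at −0.76 and −0.72, and HMGB2, a chromatin protein gene, at −0.58 and −0.54. GALNTL6, a member that lies between AADAT and GALNT7, was at 0.23 and −0.03. Around ST6GALNAC1 on chromosome 17, the neighbours read were ST6GALNAC2, given above, MXRA7 at 0.61 in MDVR and 0.17 in AbiR, and JMJD6 at 0.0050 and −0.33. The neighbours of GALNT2 on chromosome 1 included TAF5L at −0.48 in MDVR and −0.77 in AbiR, URB2 at −0.47 and −0.34, and PGBD5 at 0.67 and −0.25. On chromosome 2, the 4 neighbours of GALNT14 lay between −0.20 and 0.12 in MDVR and between −0.36 and 0.22 in AbiR, and those of GALNT3 were SCN2A at 0.14 and −0.15 and CSRNP3 at 0.59 and 0.23.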
